A study of Mus musculus with 10 samples.

Results

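Nucleotides, and the one-carbon units from which part of them are built, were followed at the level of mRNA through 36 enzyme genes in reactive cholangiocytes, the duct epithelium that expands in the injured liver. The genes were chosen by symbol for their place in the pathways and not by a measured value, although earlier results of these data were known at the time. All 36 were among the 49568 genes of the table, and all 36 had a mean over the mice of 10 normalized counts or more, which left 14870 genes to test. By role they were 9 enzymes of deoxynucleotide and thymidylate synthesis, 5 of de novo pyrimidine synthesis, 12 of de novo purine synthesis, 2 of purine salvage, 5 folate one-carbon enzymes and 3 enzymes of serine synthesis.

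The cells came from 5 Smad4del mice and 5 Ctl mice, with 1 RNA sample per mouse. Smad4del mice carry Alb-Cre and Smad4fl/fl, so that *Smad4*, the shared partner of the receptor-activated Smads in TGF-beta and BMP signalling, is deleted in cells of the albumin-expressing lineage, hepatocytes and cholangiocytes. Ctl mice are Smad4wt/wt in the labels and mice without Alb-Cre in the methods of the study, so an effect of Cre itself and an effect of *Smad4* deletion cannot be told apart in this comparison. All 10 mice ate a diet with 0.1% DDC, a compound that injures bile ducts, for 2 weeks, were of mixed genetic background, and had EPCAM+/CD45-/TER119- viable cells sorted from the digested liver. Ages are not given in the sources used here. Mice are named by the numbers of their labels, and values for single mice are given in the order A5215, A5219, A5221, A5626 and A5628 for Ctl and A5216, A5217, A5218, A5447 and A5624 for Smad4del.

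Cells obtain nucleotides by building them de novo from amino acids, bicarbonate and phosphoribosyl pyrophosphate, or by salvage of bases and nucleosides. Folate enzymes move carbon units from serine onto the growing purine ring and onto deoxyuridylate, which thymidylate synthase turns into thymidylate, and ribonucleotide reductase makes deoxynucleotides from ribonucleotides. Dividing cells need all of these, and several of the genes, among them *Tyms*, *Tk1* and *Rrm2*, are known to be transcribed mainly around S phase. In the liver the nucleotide pools also serve RNA, sugar and lipid synthesis in cells that do not divide.

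The promoters of the 6 enzymes with the smallest limma p are shown, because these genes carry the comparison below. Each stretch is the 150 bases before the RefSeq transcription start on GRCm38.p6, 5' to 3' on the gene's strand, with matches to a searched motif in capitals.

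Shmt1: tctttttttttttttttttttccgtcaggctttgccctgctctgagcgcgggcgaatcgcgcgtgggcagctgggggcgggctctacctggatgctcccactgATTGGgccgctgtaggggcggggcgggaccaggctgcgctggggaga
Umps: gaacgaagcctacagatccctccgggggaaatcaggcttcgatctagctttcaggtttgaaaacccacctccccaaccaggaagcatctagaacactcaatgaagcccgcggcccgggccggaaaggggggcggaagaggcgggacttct
Rrm2: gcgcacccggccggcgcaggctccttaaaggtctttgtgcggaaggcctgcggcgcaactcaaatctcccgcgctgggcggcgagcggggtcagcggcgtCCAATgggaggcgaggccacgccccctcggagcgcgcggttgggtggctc
Tyms: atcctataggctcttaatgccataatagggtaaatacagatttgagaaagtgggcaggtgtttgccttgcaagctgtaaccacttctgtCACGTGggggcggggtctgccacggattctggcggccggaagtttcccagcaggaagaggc
Dut: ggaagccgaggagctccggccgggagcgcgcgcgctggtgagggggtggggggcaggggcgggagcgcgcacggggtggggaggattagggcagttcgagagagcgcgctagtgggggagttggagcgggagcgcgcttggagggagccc
Dtymk: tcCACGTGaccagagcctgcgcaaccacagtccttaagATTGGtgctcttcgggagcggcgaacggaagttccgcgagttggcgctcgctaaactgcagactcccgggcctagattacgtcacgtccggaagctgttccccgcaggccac

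The stretches lie at chr11:60811266-60811415 (minus strand) for *Shmt1*, chr16:33967039-33967188 (minus strand) for *Umps*, chr12:24708104-24708253 (plus strand) for *Rrm2*, chr5:30073626-30073775 (minus strand) for *Tyms*, chr2:125247365-125247514 (plus strand) for *Dut* and chr1:93801935-93802084 (minus strand) for *Dtymk*. The capitals mark a CCAAT box on the minus strand of the gene (ATTGG) in *Shmt1* and *Dtymk* and on its plus strand in *Rrm2*, and the E-box CACGTG in *Tyms* and *Dtymk*, while none of the searched letters occurred in the stretches of *Umps* and *Dut*. Motifs were searched on both strands, with a palindrome counted once and no motif contained in another, in the whole RefSeq window from 250 bases before to 50 bases after the start, which 34 of the 36 genes had, in 40 windows. *Dhodh* and *Pfas* had none. A CCAAT box was found in 15 of 34 genes (44.1%) and in 37.4% of all 32851 promoters, and the E-box CACGTG in 6 of 34 (17.6%) and in 7.15%, in *Atic*, *Dtymk*, *Impdh2*, *Nme1*, *Paics* and *Tyms*. The E2F motif, searched as TTTCCCGC, TTTCGCGC, TTTGCCGC and TTTGGCGC, was found in 2 of 34 (*Ppat* and *Prps2*, 5.88%, against 2.26% of all promoters), and the ATF4 motif TGATGNAA in 1 of 34 (*Prps1*, 2.94%, against 3.97%). These are matches of letters in a fixed window and not sites of binding, and the RefSeq start used differed from GENCODE M21 transcripts for part of the genes (29 of 40 windows continued into an annotated M21 transcript). A gene counted when any of its windows held a match, while the shares of all promoters are per window. The 34 genes had 40 windows, so the gene shares lean upward and no excess over all promoters is read from them.

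*Smad4* itself was measured first. The normalized counts of *Smad4* were 3058, 3714, 3584, 2969 and 3619 in Ctl and 812, 1031, 687, 1011 and 846 in Smad4del. Every Smad4del mouse lay below every Ctl mouse, at a fold of 0.257, a log2 difference of -1.96 ± 0.12 (SE) (adjusted p = 1.09e-05, limma). The count is over the whole gene, and reads of exons outside the deleted part, or of cells without deletion, are included in it. The sorted cells held 16249719 to 21277339 (Ctl) and 16734672 to 19710560 (Smad4del) reads on genes per mouse. The 10 cholangiocyte markers were abundant in every mouse, with a mean log2 level of 13.22 to 13.70 in Ctl and 13.55 to 13.92 in Smad4del, and 1 of them, *Krt19*, was called higher in Smad4del (log2 difference 0.53, adjusted p = 0.027). Markers of other cell types were present as well. The summed normalized counts of 12 endothelial markers were 22042 to 61056 in Ctl and 7345 to 16443 in Smad4del, with 11 of 12 called lower in Smad4del, those of 12 macrophage markers 36699 to 288602 in Ctl and 25503 to 101854 in Smad4del, with 1 of 12 (*Cd163*) called lower by limma (12 lower at an unadjusted p under 0.05, 0 called by DESeq2 or edgeR), those of 12 hepatocyte markers 21290.5 to 40423 in Ctl and 27223 to 66549 in Smad4del with 0 of 12 called by limma (4 at an unadjusted p under 0.05, 3 by DESeq2, 0 by edgeR), and those of 10 stellate cell and fibroblast markers 17837 to 47624 in Ctl and 8573 to 15317 in Smad4del, with 1 of 10 (*Dcn*) called lower by limma (6 lower at an unadjusted p under 0.05, 5 by DESeq2, 1 by edgeR). Mouse A5215 had the largest macrophage sum. All 5 Smad4del mice lay below all Ctl mice for the endothelial and the stellate sums. In such bulk samples, fewer cells of a type and less RNA per cell cannot be told apart.

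Of the 36 enzymes, 2 were called higher in Smad4del, namely *Shmt1*, which charges folate with the carbon of serine in the cytosol, and *Umps*, which completes the synthesis of UMP. These were 5.56% of the members, and 2.43% of all genes tested were called higher. None was called lower by limma (0 of 36, with 1 lower at an unadjusted p under 0.05, 1 lower by DESeq2 and 0 by edgeR), where 4.69% of all genes tested were, and 34 were not called in either direction. The difference was above 0 for 29 of 36 enzymes (80.6%) and for 49.4% of all genes tested, with a median log2 difference of 0.21 beside -0.005 over all genes tested. The cohorts did not overlap for 3 enzymes, *Shmt1*, *Umps* and *Tyms*, all higher in Smad4del (8.33% of the members, against 3.5% of all genes tested), and for 0 in the lower direction (4.59% of all genes tested). DESeq2 on the recovered reads called 7 higher (19.4%, against 6.16% of the genes it gave an adjusted p) and 1 lower (2.78%, against 8.89%), and edgeR called the same 2 higher as limma. The 7 were *Shmt1*, *Umps*, *Tyms*, *Rrm2*, *Dut*, *Dtymk* and *Mthfd1*, and the 1 lower was *Samhd1*. DESeq2 was also run without A5217, the mouse whose value of 1 read was closest to 1. Its values were whole numbers of that step, as in every other mouse. Without A5217, DESeq2 called 3 higher (*Shmt1*, *Umps* and *Tyms*, against 3.06% of all genes with an adjusted p) and 0 lower (6.47%). *Rrm2*, *Dut*, *Dtymk*, *Mthfd1* and *Samhd1* lost their call with this 1 mouse fewer. Over all genes with an adjusted p, calls higher fell from 894 to 444 and calls lower from 1290 to 939. At an unadjusted p under 0.05 in limma, 12 of the 36 were higher and 1 lower, where 12.3% and 15.1% of all genes tested were.

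**Figure D1:**
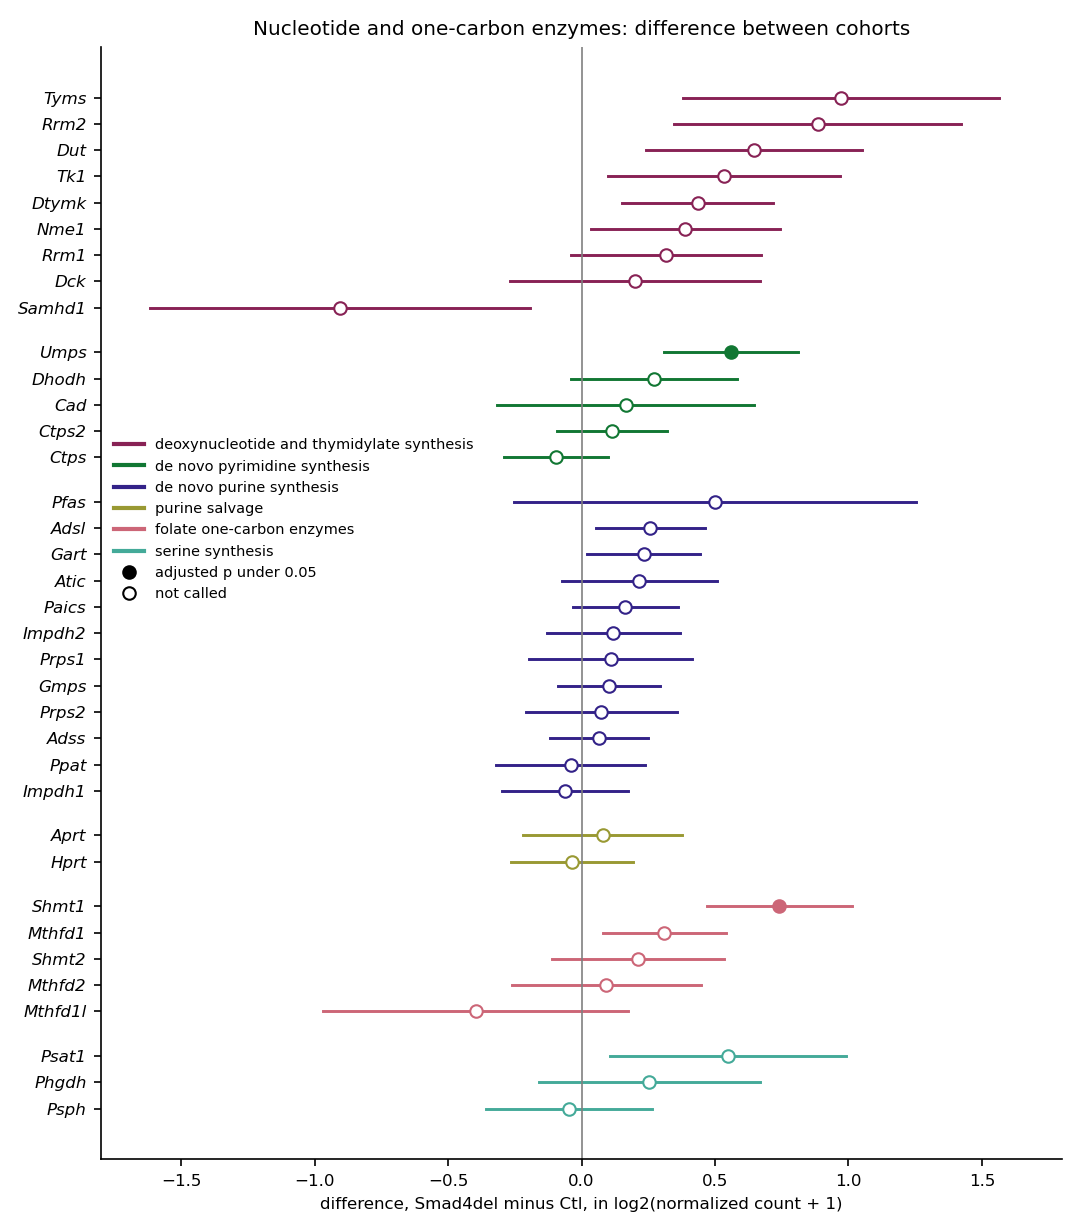
Difference between Smad4del and Ctl in log2(normalized count + 1) for the 36 enzymes (points) with the 95% confidence interval from limma (lines), grouped and coloured by role; filled points passed an adjusted p of 0.05. The filled points are *Umps* at 0.56 and *Shmt1* at 0.74, the farthest point to the right is *Tyms* at 0.97 and the farthest to the left *Samhd1* at -0.90.

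*Shmt1* (chr11:60788104-60811718, minus strand, GRCm38) had the smallest p of the members. In Ctl mice *Shmt1* had 581, 782, 707, 553 and 800.4 normalized counts, and in Smad4del mice 1225, 1229.9, 1049.7, 1146 and 1027. The lowest Smad4del mouse (1027) lay above the highest Ctl mouse (800.4), and the cohort means were 685 ± 113 in Ctl and 1136 ± 95.1 in Smad4del (SD, n = 5 each). The log2 difference was 0.74 ± 0.12 (SE), a fold of 1.67 (adjusted p = 0.00656, limma, with exact permutation p = 0.00794, the smallest that 5 mice against 5 can give). It was called when any 1 mouse was left out, with adjusted p between 0.00604 and 0.0226. Of its 3883 exon bases, 184 are shared with *Smcr8* on the opposite strand, which was at 220 to 536 normalized counts, and without strand in the counting the reads of the shared bases cannot be told apart.

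*Umps* (chr16:33954782-33967038, minus strand) joins orotate to phosphoribosyl pyrophosphate and decarboxylates the product to UMP, from which all other pyrimidine nucleotides derive. For *Umps*, normalized counts were 898, 989, 845, 995 and 879 in Ctl and 1195, 1489, 1609, 1105 and 1444 in Smad4del. All Smad4del mice lay above the highest Ctl mouse (995), although A5447 and A5216 did so by less than the others. The means were 921 ± 67.7 in Ctl and 1368 ± 210.4 in Smad4del (SD, n = 5 each), with a log2 difference of 0.56 ± 0.12 (SE) and a fold of 1.47 (adjusted p = 0.0171, limma, and exact permutation p = 0.00794). Without mouse A5217 the log2 difference was 0.53 and the adjusted p was 0.0516, over the threshold, and it stayed called when any of the other 9 was left out. The antisense gene *Gm15829* shares 213 of its 3484 exon bases and was at 0 to 4.15 normalized counts.

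**Figure D2:**
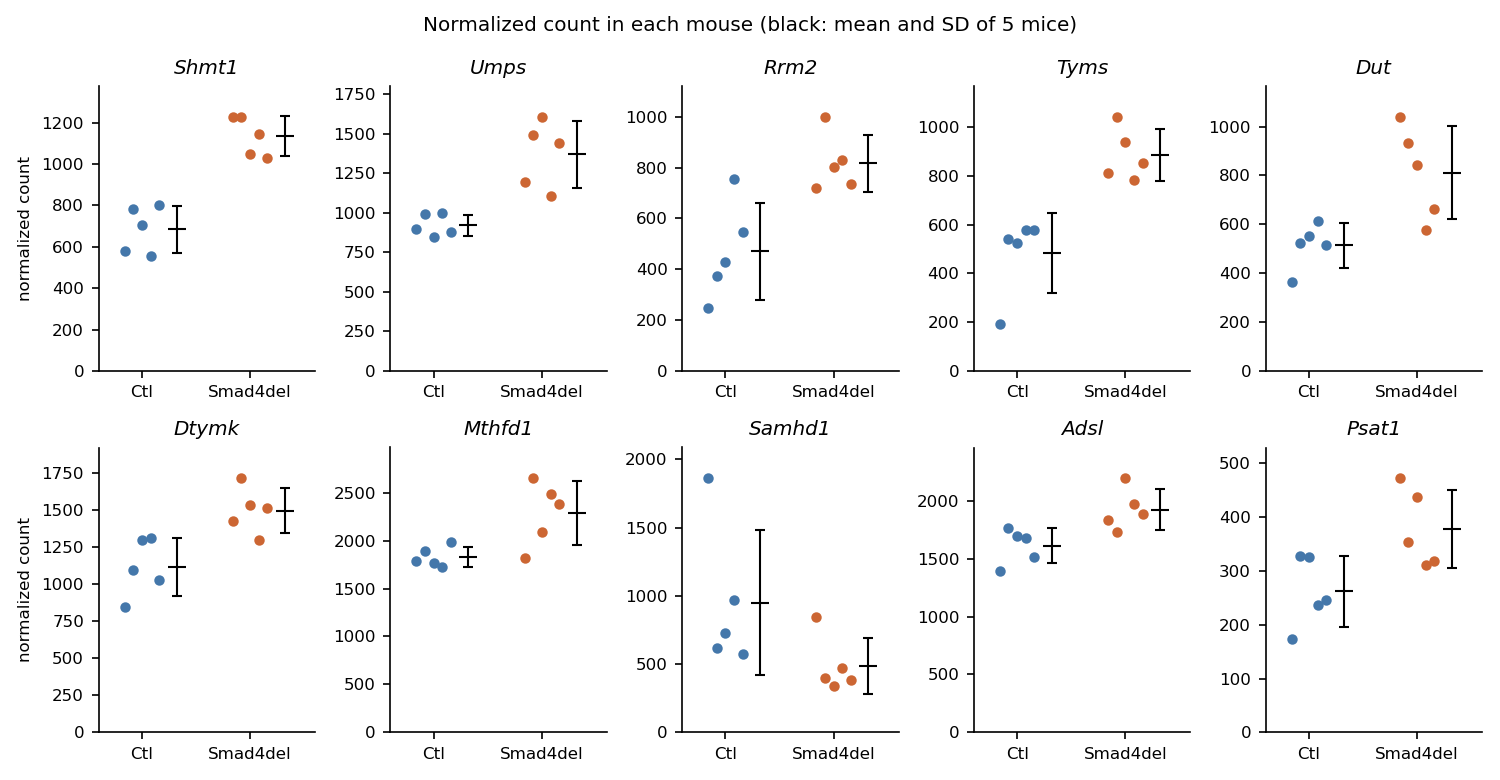
Normalized count of the 10 enzymes with the smallest limma p in each mouse (points, Ctl blue and Smad4del orange), with the mean and SD of 5 mice in black; every axis starts at 0. The cohorts separate for *Shmt1*, *Umps* and *Tyms* and overlap for the other 7 enzymes, with 1 Ctl mouse far below the rest for *Tyms* (193) and 1 far above for *Samhd1* (1863).

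Among the 9 enzymes of deoxynucleotide and thymidylate synthesis, 0 were called by limma or edgeR. At an unadjusted p under 0.05 in limma, 6 were higher and 1 lower, beside 12.3% and 15.1% of all genes tested. DESeq2 called 4 higher and 1 lower, beside 6.16% and 8.89% of the genes it gave an adjusted p. Without A5217 only *Tyms* of these was called by DESeq2 (adjusted p = 0.0398), and *Rrm2* (0.076), *Dut* (0.0536), *Dtymk* (0.105) and *Samhd1* (0.0945) were over the threshold. The difference was above 0 for 8 of the 9, with a median of 0.44. *Tyms* (chr5:30058202-30073617, minus strand), thymidylate synthase, makes dTMP from dUMP at the cost of a folate carbon unit. *Tyms* was at 193, 541, 524, 579 and 576 normalized counts in the Ctl mice and at 811, 1043, 938, 784 and 853 in the Smad4del mice. The cohorts did not overlap, and the Ctl value of A5215 was less than the other 4 by a wide margin. The log2 difference was 0.97 ± 0.27 (SE), a fold of 1.96 between the geometric means, with an adjusted p of 0.0516 in limma, just over the threshold, and an exact permutation p of 0.00794. Without A5215 it was 0.67 with an adjusted p of 0.0088.

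Ribonucleotide reductase, which reduces ribonucleotides to deoxynucleotides, has the large subunit *Rrm1* and either the S-phase small subunit *Rrm2* or the p53-inducible *Rrm2b*. The normalized counts of *Rrm2* were 247, 375, 428, 756 and 546 in Ctl and 718, 1001, 802, 830.0 and 736 in Smad4del. The Ctl mice ranged from 247 to 756, and A5626 reached the level of the Smad4del mice. For *Rrm2* the log2 difference was 0.88 ± 0.25 (SE) (adjusted p = 0.0516, limma, and exact permutation p = 0.0238), and without A5626 it was 1.08 with an adjusted p of 0.0179. With the mouse number series as a term *Rrm2* was called (adjusted p = 0.0404, limma), which made 3 members called higher, and over all alternatives its adjusted p ranged from 0.0166 (DESeq2) to 0.997 (endothelial level as a term). In Ctl mice *Rrm1* had 1450.5, 1228, 1614, 1903 and 1485 normalized counts, and in Smad4del mice 1409.9, 2487, 1974, 2207 and 1592. The cohorts overlapped, with A5216 below 4 of the Ctl mice, at a log2 difference of 0.32 ± 0.16 (SE) (adjusted p = 0.229, limma). *Rrm2b* was low in both cohorts, with 164 to 231 normalized counts in the 5 Ctl mice and 128 to 201 in the 5 Smad4del mice, with a log2 difference of -0.23 ± 0.19 (SE) (adjusted p = 0.458, limma).

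*Dut* removes dUTP, both keeping uracil out of DNA and giving the dUMP that *Tyms* uses. For *Dut*, normalized counts were 365, 524, 551, 612 and 515 in Ctl and 1041, 934, 843, 577 and 662 in Smad4del. Smad4del mice of the A52 number series were at 843 or more while A5447 (577) lay within the Ctl range and A5624 (662) just above it. Its log2 difference was 0.65 ± 0.18 (SE) (adjusted p = 0.0552, limma), and 0.76 with an adjusted p of 0.0271 without A5447. *Dtymk* phosphorylates dTMP to dTDP. *Dtymk* was at 843, 1096, 1299, 1311 and 1029 normalized counts in the Ctl mice and at 1423, 1715, 1530.4, 1298 and 1514 in the Smad4del mice. A5447 was the only Smad4del mouse within the Ctl range, and the log2 difference was 0.44 ± 0.13 (SE) (adjusted p = 0.0618, limma), or 0.49 with an adjusted p of 0.0486 without A5447.

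*Tk1*, the cytosolic thymidine kinase of the salvage route, had the lowest level per kilobase of exon of the 9 in Ctl mice (51.0). The normalized counts of *Tk1* were 286, 174, 261, 356 and 248 in Ctl and 327, 501, 320.5, 380.4 and 365 in Smad4del. The cohorts overlapped and A5217 was highest, with a log2 difference of 0.53 ± 0.20 (SE) (adjusted p = 0.114, limma). *Nme1*, a nucleoside diphosphate kinase, had a log2 difference of 0.39 ± 0.16 (SE) (adjusted p = 0.148, limma), and *Dck*, which phosphorylates deoxycytidine, of 0.20 ± 0.21 (SE) (adjusted p = 0.571, limma). *Nme1* shares 418 of 3342 exon bases with the read-through gene *Gm20390*, which is listed at 0, while its neighbour *Nme2* was at 49.7 to 93.3 normalized counts.

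*Samhd1* acts in the opposite sense to the other 8, since it hydrolyses the deoxynucleoside triphosphates that they help to supply. It is known to be high in myeloid cells. In Ctl mice *Samhd1* had 1863, 620.0, 727, 967 and 577 normalized counts, and in Smad4del mice 844, 396, 339, 469 and 382. The cohorts overlapped through A5216, which was the highest of the Smad4del mice, and A5215 was the highest of all. Its log2 difference was -0.90 ± 0.33 (SE) (adjusted p = 0.104, limma, and exact permutation p = 0.0397), and -1.12 with an adjusted p of 0.0473 without A5216. A5215 and A5216 were also the mice with the highest mean log2 level of macrophage markers in their cohorts, 13.90 and 11.60. With that level as a term, the *Samhd1* difference was -0.19 (adjusted p = 0.712, limma).

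In de novo pyrimidine synthesis only *Umps* of 5 was called by limma and by DESeq2. *Cad*, which carries out the opening steps of the pathway on 1 polypeptide, had a log2 difference of 0.17 ± 0.22 (SE) (adjusted p = 0.66, limma) and *Dhodh*, the dehydrogenase of the inner mitochondrial membrane, of 0.27 ± 0.14 (SE) (adjusted p = 0.239, limma). *Ctps* and *Ctps2* both make CTP from UTP. For *Ctps*, normalized counts were 1928, 1853, 1979, 1884 and 1975 in Ctl and 1627, 1731, 1607, 2038 and 2044 in Smad4del. *Ctps2* was at 1824, 1856, 1849, 1543 and 1757 normalized counts in the Ctl mice and at 2277, 1709, 1854, 1808 and 1928 in the Smad4del mice. The Ctl mice were tight for *Ctps*, with a coefficient of variation of 2.88%, and both cohorts overlapped for both genes. Their log2 differences were -0.10 ± 0.09 (SE) and 0.11 ± 0.09 (SE), with 95% intervals from -0.29 to 0.10 and from -0.09 to 0.32.

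Of the 12 enzymes of de novo purine synthesis, none was called by limma, DESeq2 or edgeR, 2 were higher at an unadjusted p under 0.05 (*Adsl* and *Gart*, beside 12.3% of all genes tested), and the difference was above 0 for 10 of 12 with a median of 0.11. *Adsl*, which splits off fumarate at a late step of IMP synthesis and again on the way to AMP, was the one with the smallest p. The normalized counts of *Adsl* were 1394, 1762, 1698, 1678 and 1514 in Ctl and 1833, 1733, 2196, 1968 and 1881 in Smad4del. A5217 (1733) was the lowest Smad4del mouse and lay below 1 Ctl mouse, and the log2 difference was 0.26 ± 0.09 (SE) (adjusted p = 0.107, limma). *Gart*, a trifunctional enzyme of the early ring steps that uses formyl-folate, had a log2 difference of 0.23 ± 0.10 (SE) (adjusted p = 0.147, limma). *Paics*, the most abundant of them per exon length, was at 0.16 ± 0.09 (SE) (adjusted p = 0.26) and *Ppat*, the amidotransferase of the committed step, at -0.04 ± 0.13 (SE) (adjusted p = 0.866), both by limma. *Paics* and *Ppat* start head to head and share 272 exon bases on opposite strands.

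*Pfas*, the amidotransferase that works after *Gart*, varied most among these enzymes, from 68.6 to 202 in Ctl and from 115 to 234 in Smad4del, and its log2 difference was 0.50 ± 0.35 (SE) (adjusted p = 0.37, limma). *Atic*, which uses the other formyl-folate and closes the ring, was at 0.22 ± 0.13 (SE) (adjusted p = 0.314, limma), *Adss* at 0.06 ± 0.08 (SE) and *Gmps* at 0.10 ± 0.09 (SE), the branch enzymes towards AMP and GMP (adjusted p = 0.656 and 0.478, limma). Isoenzyme pairs open the pathway and branch it. In Ctl mice *Prps1* had 811, 1027, 1352, 916 and 1091 normalized counts, and in Smad4del mice 1067, 1211, 1066, 1276 and 933. For *Prps2*, normalized counts were 668, 910.5, 709.7, 847 and 775 in Ctl and 631, 819, 919, 859 and 899 in Smad4del. Neither of these synthases of phosphoribosyl pyrophosphate separated the cohorts, with log2 differences of 0.11 ± 0.14 (SE) and 0.07 ± 0.13 (SE) (adjusted p = 0.648 and 0.746, limma). *Impdh1* was at 1254, 1256, 1204, 996 and 945 normalized counts in the Ctl mice and at 1119, 981, 1188, 1096 and 1006 in the Smad4del mice. The normalized counts of *Impdh2* were 959.7, 919, 996, 912 and 1049 in Ctl and 891, 1359, 994, 1027 and 1028 in Smad4del. The IMP dehydrogenases, which commit IMP to guanine nucleotides, were as close, at -0.06 ± 0.11 (SE) and 0.12 ± 0.11 (SE) (adjusted p = 0.746 and 0.521, limma).

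The purine salvage enzymes *Hprt*, for hypoxanthine and guanine, and *Aprt*, for adenine, were not called either. *Hprt* had a log2 difference of -0.04 ± 0.10 (SE) with a 95% interval of -0.27 to 0.19, and *Aprt* of 0.08 ± 0.14 (SE) with an interval of -0.22 to 0.38. Neither passed an unadjusted p of 0.05, and DESeq2 and edgeR called 0 of them.

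Of the 5 folate one-carbon enzymes, *Shmt1* was called by limma, and DESeq2 called *Mthfd1* as well, but not without A5217 (adjusted p = 0.142). *Mthfd1* interconverts the cytosolic folate forms and supplies formyl-folate to purine synthesis. In Ctl mice *Mthfd1* had 1783, 1887, 1763, 1726 and 1986 normalized counts, and in Smad4del mice 1819, 2651, 2091, 2489.9 and 2376. A5216 (1819) lay within the Ctl range and the other 4 Smad4del mice above it. The log2 difference was 0.31 ± 0.11 (SE) (adjusted p = 0.0885, limma), and 0.39 with an adjusted p of 0.0328 without A5216. The mitochondrial enzymes of the same carbon flow were not called. For *Shmt2*, normalized counts were 1055, 1541, 1057, 1238 and 955 in Ctl and 1323, 1491, 1524, 1015 and 1387 in Smad4del. For *Shmt2* the log2 difference was 0.21 ± 0.15 (SE) (adjusted p = 0.374, limma), for *Mthfd2* 0.09 ± 0.16 (SE) (0.746) and for *Mthfd1l*, which releases formate, -0.40 ± 0.26 (SE) (0.346).

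Serine is the main donor of these carbon units, and *Phgdh*, *Psat1* and *Psph* build it from a glycolytic intermediate. *Psat1* was at 174, 328, 326, 236 and 246 normalized counts in the Ctl mice and at 473, 354, 437, 311 and 318 in the Smad4del mice. The cohorts overlapped, with A5447 and A5624 below the highest 2 Ctl mice, and the log2 difference was 0.55 ± 0.20 (SE) (adjusted p = 0.111, limma). *Phgdh* was at 0.25 ± 0.19 (SE) (0.408) and *Psph* at -0.05 ± 0.14 (SE) (0.862), and 0 of the 3 were called by limma, DESeq2 or edgeR, with 1 (*Psat1*) at an unadjusted p under 0.05.

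Ratios of related enzymes were taken within each mouse, since they do not depend on its size factor, and compared by exact permutation tests adjusted over 7 pairs. The ratio of *Rrm2* to *Rrm2b* did not overlap between the cohorts. Its log2 values were 0.59, 0.69, 1.34, 1.97 and 1.54 in Ctl and 2.25, 2.33, 1.99, 2.63 and 2.51 in Smad4del. It was 2.17-fold higher in Smad4del (exact p = 0.00794, adjusted 0.0278). The ratio of the cytosolic to the mitochondrial thymidine kinase, *Tk1* to *Tk2*, did not overlap either. Its log2 values were -1.85, -1.44, -1.14, -1.12 and -1.41 in Ctl and -0.93, 0.25, -0.32, -0.09 and -0.64 in Smad4del. It was 2.07-fold higher (exact p = 0.00794, adjusted 0.0278), and *Tk2* itself had a log2 difference of -0.51 ± 0.21 (SE) (adjusted p = 0.142, limma). *Rrm2* to *Rrm1* overlapped. Its log2 values were -2.55, -1.71, -1.91, -1.33 and -1.44 in Ctl and -0.97, -1.31, -1.30, -1.41 and -1.11 in Smad4del. The ratio was 1.48-fold higher (exact p = 0.0159, adjusted 0.037), and A5215 was far below the other mice.

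*Shmt2* to *Shmt1* had means of 0.77 in Ctl and 0.24 in Smad4del on the log2 scale, 0.693 times as high in Smad4del, with an exact p of 0.0397 and 0.0694 after adjustment. The isoenzyme ratios of *Ctps* to *Ctps2*, *Prps1* to *Prps2* and *Impdh2* to *Impdh1* differed by -0.21, 0.03 and 0.18 on the log2 scale, with adjusted exact p of 0.244, 0.857 and 0.398. The adjusted p of the 3 called pairs missed the threshold in most of the analyses without 1 mouse, in which the smallest p that can be had is larger.

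**Figure D3:**
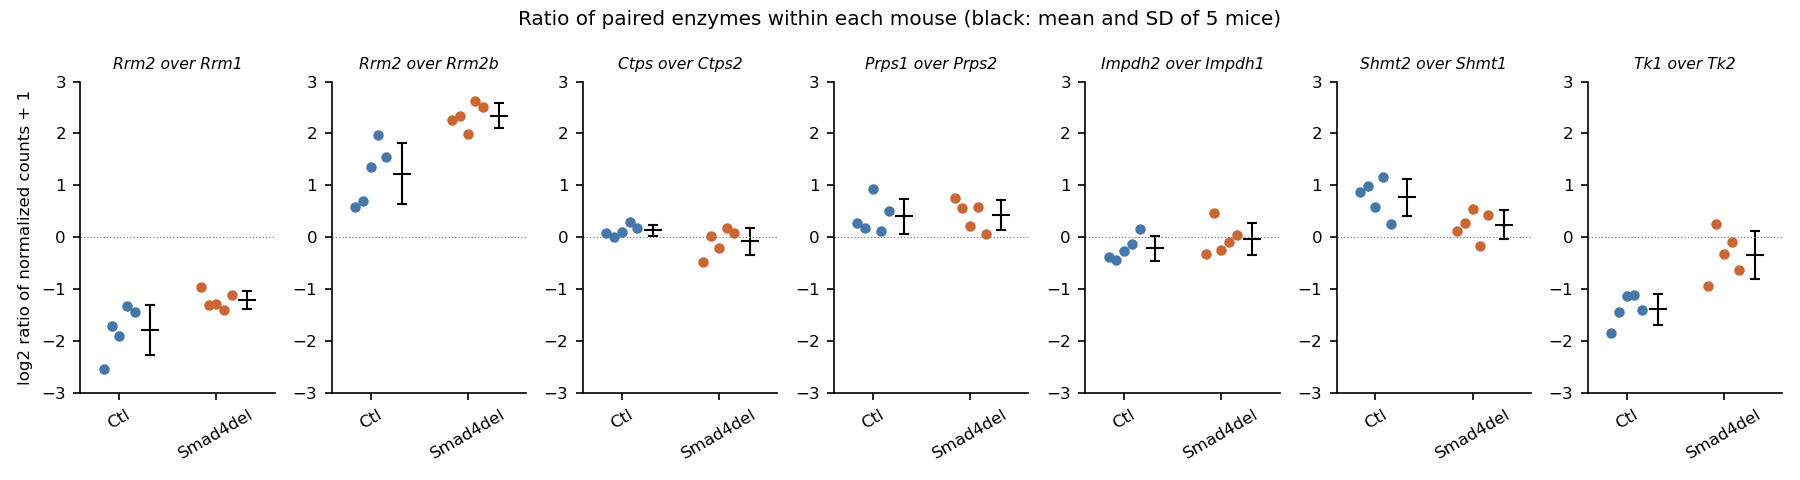
Log2 ratio of normalized counts (+ 1) of 7 enzyme pairs in each mouse (points, Ctl blue and Smad4del orange), with the mean and SD of 5 mice in black and equal counts at the dotted line. The cohorts separate for *Rrm2* over *Rrm2b* (means 1.22 and 2.34) and *Tk1* over *Tk2* (means -1.39 and -0.35), and the points of the other 5 pairs overlap.

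Levels between genes were set side by side as normalized counts per kilobase of merged exons, which understates genes with long exons that these cells do not use. In Ctl mice *Hprt* (1690 per kb), *Paics* (1360.5), *Aprt* (693) and *Ctps* (580) had the highest levels, and *Pfas* (18.6), *Tk1* (51.0), *Atic* (53.2) and *Psat1* (61.6) the lowest. *Umps* was at 264 per kb in Ctl and 393 in Smad4del and *Shmt1* at 176 and 292. *Tyms* was at 79.2 and 145, *Rrm2* at 170 and 295 and *Dut* at 213 and 337 per kb. By this level *Umps* ranked 17 and *Shmt1* 21 of the 36 in Ctl, and the 4 most abundant enzymes had log2 differences between -0.10 and 0.16.

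**Figure D4:**
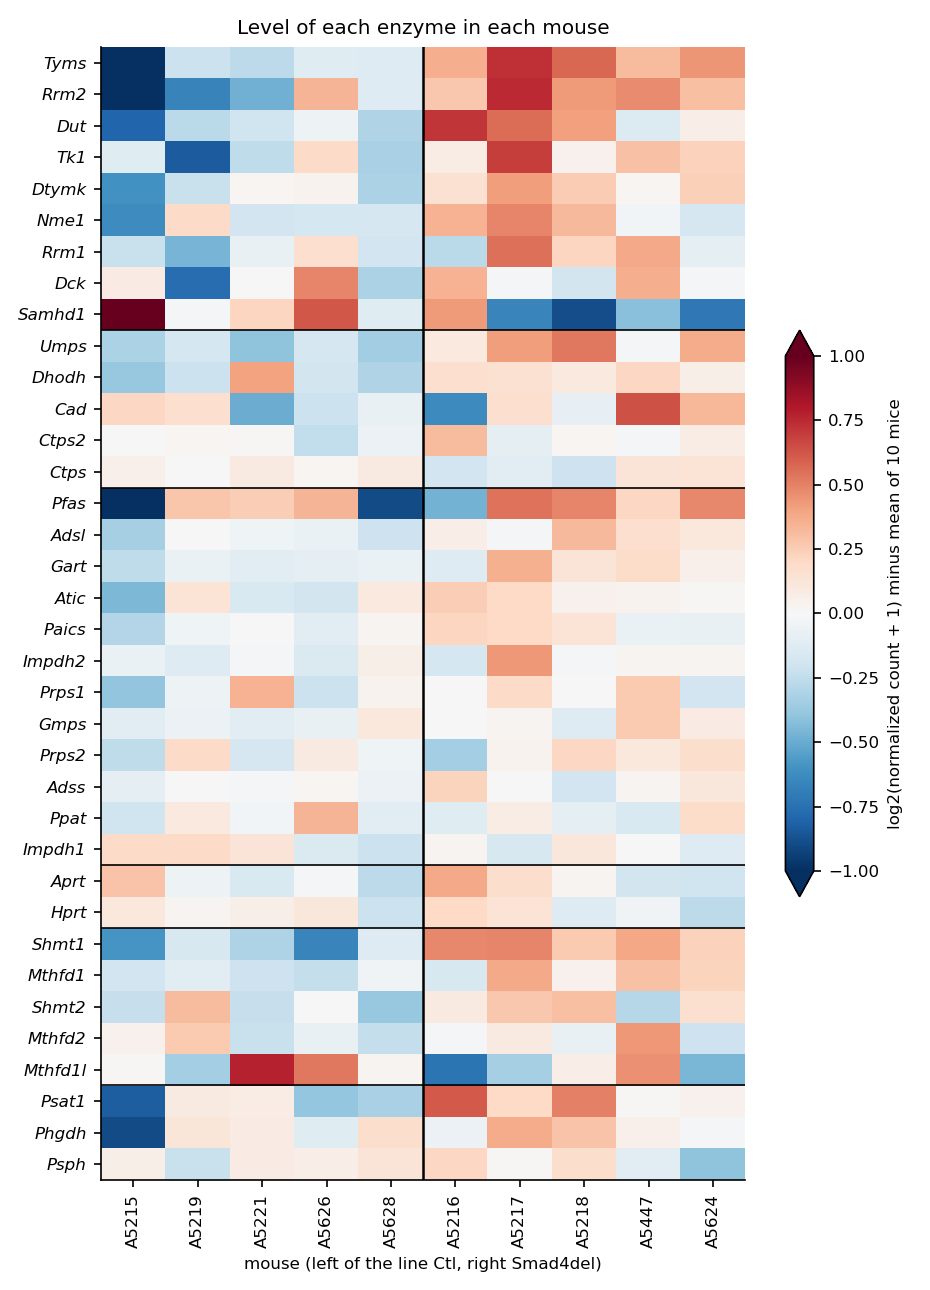
Level of each enzyme in each mouse, as log2(normalized count + 1) minus the mean of the 10 mice (blue lower, red higher, colours end at -1 and 1), with rows grouped by role and Ctl left of the vertical line. The column of A5215 is blue for most enzymes and red for *Samhd1*, and the column of A5217 is mostly red.

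The mice did not contribute evenly. A5215 was the lowest of the 10 mice for 15 of the 36 enzymes and A5217 the highest for 12. The summed normalized counts of the 36 enzymes were 36559 to 39969 in Ctl and 42234 to 47789 in Smad4del, 0.185% to 0.221% of all normalized counts in Ctl and 0.242% to 0.266% in Smad4del. All Smad4del mice lay above all Ctl mice in this sum, which the abundant genes dominate. The mean log2 level of the 36, in which every gene has the same weight, did not overlap either. It was 9.53 to 9.79 in Ctl and 9.84 to 10.02 in Smad4del. A5215 had the highest macrophage, endothelial and stellate marker levels and the lowest cholangiocyte and proliferation marker levels of the 10 mice, whose part in its low enzyme values was not tested beyond the terms given here.

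Proliferation markers and cell type markers moved with the cohorts beside these enzymes. Of 10 proliferation markers 9 were called higher in Smad4del, and their mean log2 level was 8.48 to 9.55 in Ctl and 9.84 to 10.05 in Smad4del, without overlap. The level of the 9 deoxynucleotide enzymes was 9.12 to 9.70 and 9.57 to 9.93, and overlapped. This level includes *Samhd1*, which differed in the other direction (-0.90), so the overlap is not shown to hold for the other 8. With the macrophage level as a term, the log2 differences of *Shmt1* and *Umps* were 0.63 and 0.59 with adjusted p of 0.0548 and 0.0604 in limma, and with the hepatocyte level 0.74 and 0.53 with adjusted p of 0.0179 and 0.0422. With the endothelial level, which the cohorts did not share at any value (10.61 to 11.97 in Ctl and 8.88 to 10.16 in Smad4del), they were 0.44 and 0.29 with an adjusted p of 0.997 each. The cohort and the endothelial level cannot be told apart in these 10 mice.

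**Figure D5:**
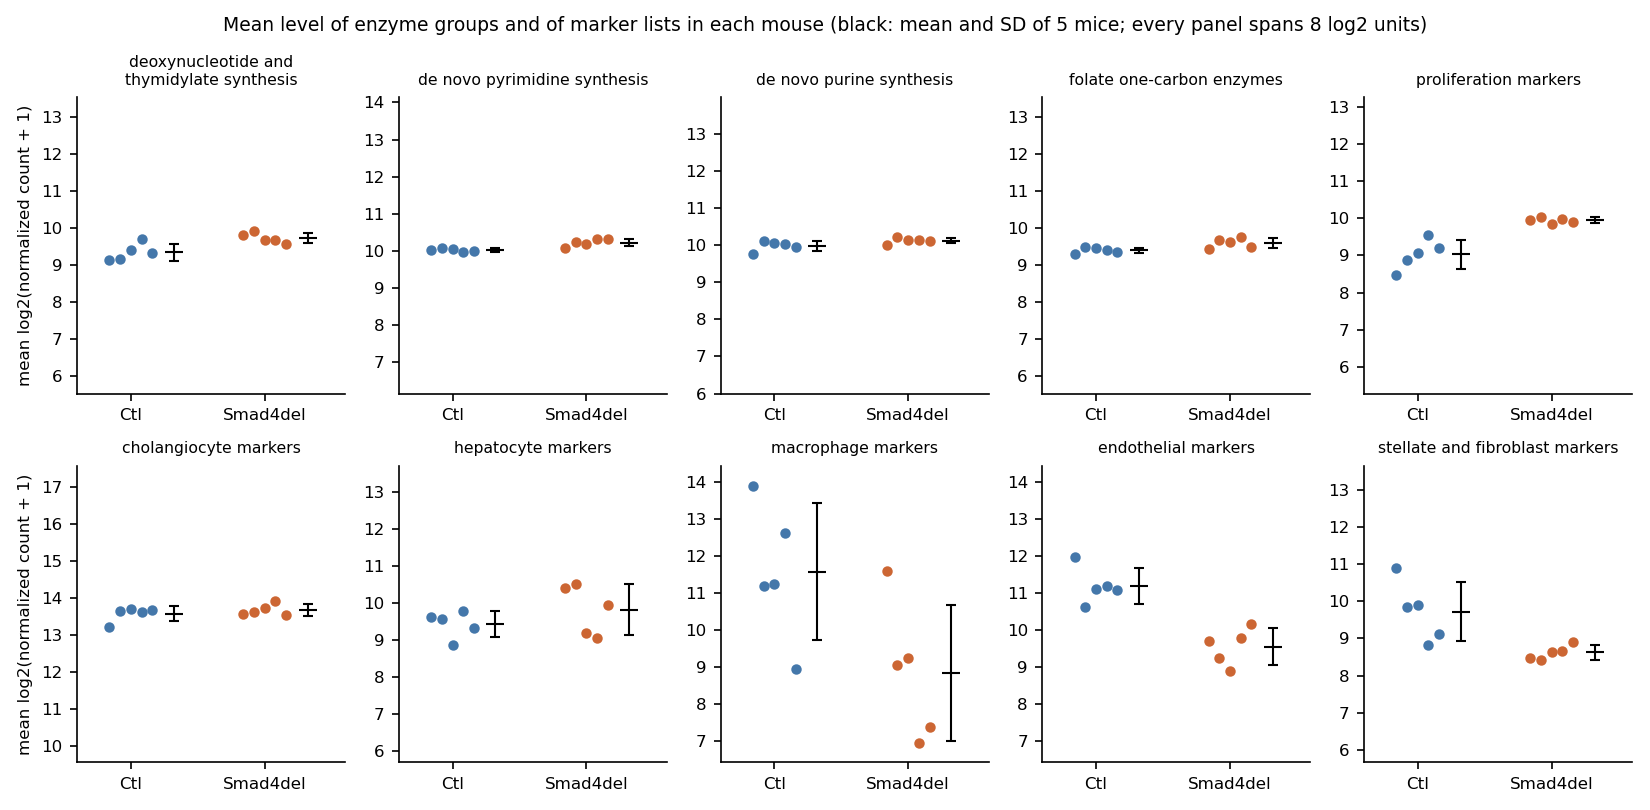
Mean log2(normalized count + 1) of 4 groups of enzymes and of 6 marker lists in each mouse (points, Ctl blue and Smad4del orange), with the mean and SD of 5 mice in black; every panel spans 8 log2 units. The enzyme groups lie close together beside the macrophage markers, which range from 6.97 to 13.90, and the endothelial markers are lower in all Smad4del mice.

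Mouse numbers fall into an A52 series, with 3 mice in each cohort, and an A54 to A56 series with 2 in each, which the labels do not call batches. The difference was above 0 for 29 of 36 enzymes within the A52 series and for 28 within the other. *Shmt1* differed by 0.77 and 0.70 on the log2 scale and *Umps* by 0.64 and 0.43. The values of the S-phase enzymes were farther apart, at 1.28 and 0.50 for *Tyms*, 1.29 and 0.28 for *Rrm2* and 0.99 and 0.14 for *Dut*, and a difference between the series was not tested.

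Genes around the 36 enzymes were taken from 8 lists of 100 genes, of which 98 were tested. By limma 1 was called higher and 3 lower in Smad4del, where 2.43% and 4.69% of all genes tested were. These limma counts did not exceed the shares over all genes, so no trait of the lists is read from the calls below. By other measures more of the 98 were higher than over all genes. DESeq2 called 12 higher and 9 lower (6.16% and 8.89% over all genes), but 1 and 5 without A5217 (3.06% and 6.47%). The cohorts did not overlap for 7 higher and 4 lower (3.5% and 4.59%). At an unadjusted p under 0.05 in limma, 21 were higher and 14 lower (12.3% and 15.1%). *Slc25a32*, the mitochondrial folate carrier, was lower, with a range of 298 to 399 in the Ctl mice and of 152 to 299.6 in the Smad4del mice, which met only in A5221 and A5624, and a log2 difference of -0.70 ± 0.19 (SE) (adjusted p = 0.0464). It was not called by edgeR (adjusted p = 0.0605). This was the 1 call by limma among 17 genes of folate uptake and the folate cycle, whose median difference was -0.05, while DESeq2 called 1 higher and 2 lower and edgeR 0.

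*Ada*, adenosine deaminase, was the call with the smallest p in the breakdown list. The normalized counts of *Ada* were 713, 279, 469, 517 and 446 in Ctl and 184, 136, 109.5, 140.0 and 127 in Smad4del. Its log2 difference was -1.75 ± 0.24 (SE) (adjusted p = 0.00224), and no Smad4del mouse reached the lowest Ctl mouse. *Uox*, the urate oxidase of hepatocytes, was the other call among 17 genes of nucleotide breakdown, higher in Smad4del with 316 to 1007 normalized counts in the 5 Ctl mice and 724 to 3377 in the 5 Smad4del mice and a log2 difference of 1.64 ± 0.43 (SE) (adjusted p = 0.0432), beside the hepatocyte marker sums given above. None of the related genes was called higher by limma when A5215, A5221, A5626, A5628, A5216, A5217 or A5624 was left out. *Gmpr*, GMP reductase, was the 1 call among 12 tested genes of pool sanitation and interconversion, at 174 to 363 normalized counts in the 5 Ctl mice and 69.5 to 138 in the 5 Smad4del mice, lower without overlap (log2 difference -1.26 ± 0.27 (SE), adjusted p = 0.0185). DESeq2 called 3 higher and 2 lower in each of these lists, and edgeR 1 higher and 2 lower in breakdown and 0 higher and 1 lower in interconversion.

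In the other 5 lists limma called 0 genes. At an unadjusted p under 0.05 these held 3 higher and 3 lower of 17 tested nucleoside and nucleotide kinases (DESeq2 3 and 2), 2 higher and 0 lower of 13 genes of the methionine cycle and transsulfuration (DESeq2 0), 4 and 0 of 9 genes of the pentose phosphate pathway (DESeq2 0), 2 and 1 of 6 genes of serine and glycine transport and breakdown (DESeq2 1 and 0), and 1 and 3 of 7 regulators (DESeq2 1 and 1), with 0 called by edgeR in all 5. Over all genes tested these shares were 12.3% higher and 15.1% lower. The genes with the highest mean normalized count in each list, not corrected for length, were *Adk* (0.41 ± 0.11 (SE), adjusted p = 0.0531), *Mat2a* (-0.16 ± 0.08 (SE), 0.225), *Taldo1* (0.08 ± 0.13 (SE), 0.719), *Slc1a5* (0.13 ± 0.17 (SE), 0.655) and *Myc* (-0.55 ± 0.18 (SE), 0.086), as log2 differences with the adjusted p of limma. *Adk*, adenosine kinase, had 5433 to 7526 normalized counts in the Ctl mice and 7536 to 10752 in the Smad4del mice, without overlap. DESeq2 called *Adk* higher (adjusted p = 0.0104) and edgeR did not (0.061). *Myc*, a known activator of nucleotide synthesis genes, was at 4030 to 6497 in Ctl and 2949 to 5528 in Smad4del. DESeq2 called *Myc* lower (adjusted p = 0.0395) and edgeR did not (0.119).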

How the data were processed

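Single-end RNA-seq was made from sorted reactive cholangiocytes of 10 mice with the SMART-Seq v4 kit, which does not mark strand. By the methods and the submitters' processing notes, the authors used Trimmomatic 0.36 for trimming, STAR for alignment to GRCm38.p5, featureCounts with GENCODE M12 for counting, once with unique reads and once with multi-mapping reads included, and DESeq2 1.14.1 (R 3.3.2) for normalization. The sources used here do not say which counting was deposited, so genes with near-identical copies are uncertain. The labels also carry a cell line tag and a culture protocol, while the methods describe sorting from livers, which was followed here.

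The deposited values are a signal, read counts after division by the size factor of the mouse and not corrected for gene length. In each mouse 100% of values were a whole number of steps (tolerance 1e-06), and these recovered reads were used for DESeq2 and edgeR. In A5217 the value of 1 read was 0.998, the closest to 1 of the 10 mice, and the count tests were also run without it. Its values too were whole steps, so this was no sign of a fault in the library. Genes with a mean of at least 10 were tested with limma 3.58.1 in R 4.3.3 on log2(normalized count + 1), so fold changes of low genes are understated, with a trended prior, no covariate, all 10 mice and a threshold of 0.05 after Benjamini-Hochberg adjustment. Members and pair ratios were compared with exact two-sided permutation tests in Python 3.11.15. On counts simulated for this comparison (14677 genes tested), limma found 51 of 100 genes with a 2-fold change, 83 of 100 with a 4-fold change and 4 unchanged genes.

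Alternatives were pseudocounts of 0.5 and 10, no filter and a minimum of 50, median scaling, a robust prior, DESeq2 1.42.0 and edgeR 4.0.16, the mouse number series and the hepatocyte or macrophage level as a term, and leaving out each mouse. The endothelial level as a term and the count tests without A5217 were added after seeing the data. Members and lists were chosen with earlier results of these data known, and 1 related gene is not reported here. Values in each mouse are given for the called members, for the members with the next smallest p up to 10 in all and for those in the 7 pairs, and of the related genes those called, or in a list with none the gene with the highest mean normalized count, are named. Positions and exon lengths are those of GENCODE M21 (36 of 36 symbols matched), and promoters are those of RefSeq on GRCm38.p6.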

Additional observations from a re-analysis of the deposited data

Results flagged for a closer look

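Of 88 groups of 5 mice examined for a single mouse far from the other 4, 7 stood out (gap to the nearest mouse over 0.71 of the range), where chance gives about 1 in 20 groups. In Ctl, *Tyms* was lowest in A5215 at 193 normalized counts beside 524 to 579 in the others, and *Gart* was lowest in the same mouse at 1248. *Hprt* was lowest in A5628 at 1845 and *Gmps* highest in it at 2265. *Dhodh* was highest in A5221 at 815, and *Psph* was lowest in A5219 at 347. In Smad4del, *Samhd1* was highest in A5216 at 844 beside 339 to 469 in the others. A5215 and A5216 had the highest macrophage marker levels of their cohorts, 13.90 and 11.60 on the log2 scale. That level was fitted as a term for the cohort differences only, and its part in the flagged values of single mice was not tested.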

How the results depend on the processing

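The difference of Smad4 kept its direction in all settings (-2.02 to -1.87 with 1 mouse left out) and missed the threshold only with the endothelial level as a term (-1.997, adjusted p = 0.0612, limma). Members called higher numbered 2, and 4 with a pseudocount of 10, 5 with a minimum mean of 50, 7 by DESeq2 (3 without A5217), 1 by edgeR without A5217, 0 with the macrophage or the endothelial level as a term, and 1 to 4 with 1 mouse left out, where 0 or 1 was called lower; 1 was called lower by DESeq2 (0 without A5217). Over the whole table, the genes called higher were 362 and the genes called lower 697, with 209 higher without a filter, 199 higher with the hepatocyte level, 113 and 331 with the macrophage level, 0 and 0 with the endothelial level, 894 and 1290 by DESeq2 (444 and 939 without A5217), 89 and 265 by edgeR without A5217, and 105 to 563 and 329 to 852 with 1 mouse left out. The related genes called higher were 1 and the related genes called lower 3. They were 0 higher without a filter or with a robust prior, 4 higher with a minimum of 50, 0 and 1 with the macrophage level, 0 and 0 with the endothelial level, 12 and 9 by DESeq2 (1 and 5 without A5217), 0 and 1 by edgeR without A5217, and 0 to 7 and 1 to 5 with 1 mouse left out. The cause of these moves was not tested, except that fewer genes are tested under a stricter minimum.

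With 1 mouse left out, the log2 difference of the pair ratios was 0.38 to 0.68 for Rrm2 over Rrm1, 0.96 to 1.30 for Rrm2 over Rrm2b, 0.90 to 1.19 for Tk1 over Tk2, -0.66 to -0.43 for the pair Shmt2 over Shmt1, -0.27 to -0.11 for Ctps over Ctps2, 0.06 to 0.27 for Impdh2 over Impdh1 and -0.047 to 0.17 for the pair Prps1 over Prps2, the last of which changed sign without A5219 (-0.022), A5626 (-0.037), A5216 (-0.047) or A5447 (-0.00034).

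The sign of single members turned with the endothelial level as a term for Tyms (-0.19), Nme1 (-0.45), Samhd1 (0.40), Ctps (0.14), Prps1 (-0.25), Prps2 (-0.22), Gart (-0.0062), Pfas (-0.54), Paics (-0.17), Adsl (-0.024), Atic (-0.18), Shmt2 (-0.24), Phgdh (-0.68) and Psat1 (-0.24), all with adjusted p over 0.98. It turned with the macrophage level for Cad (-0.12), Prps1 (-0.042), Prps2 (-0.096), Gmps (-0.022), Impdh1 (0.040), Hprt (0.15), Phgdh (-0.027) and Psph (0.090), and with the hepatocyte level for Aprt (-0.020). With 1 mouse left out the range held both signs for Ppat (-0.096 to 0.039, above 0 without A5626), Hprt (-0.096 to 0.024, above 0 without A5624), Psph (-0.11 to 0.047, above 0 without A5624), Aprt (-0.0059 to 0.16, below 0 without A5216) and Mthfd2 (-0.0048 to 0.17, below 0 without A5447). No paired analysis was possible, because the replicate numbers name single mice and the labels do not give the litter. By the methods of the study, littermates served as controls where possible, so a shared litter was not accounted for. With 5 mice a cohort, 51 of 100 simulated 2-fold changes were recovered, so that an enzyme that was not called is not shown to be equal in the cohorts.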
